A study of Mus musculus with 14 samples.

Results

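The 9 genes described here are Egr1, Egr2, Egr3, Srf, Mcl1, Ier2, Ier3, Dusp1 and Nr4a1, which are induced within minutes by serum and growth factors, encode the factor that mediates that response, or do both. They were examined among 21774 annotated protein-coding genes for binding sites of 7 transcription factors (TFs) at 5 stages of mouse blood cell development. A gene was counted as bound when a peak shared at least 1 bp with its RefSeq span on the GRCm38 assembly extended by 10 kb on each side. By this rule the 14 peak lists, which held 158488 peaks in all, placed 121 peaks at the 9 genes. The cells were differentiated from mouse embryonic stem cells of strain 129 and sorted on surface markers and, at the early stages, on a green fluorescent protein reporter of the mesodermal gene Brachyury (Bry.GFP). ELK4 and C/EBPβ were mapped in mesoderm (MES; Bry.GFP+, FLK1-), C/EBPβ and GATA2 in hemangioblasts (HB; Bry.GFP+, FLK1+), C/EBPβ in hemogenic endothelium (HE; Bry.GFP+, Tie2+/Ckit+/CD41-), C/EBPβ, GATA1, GATA2, GFI1B, RUNX1 and PU.1 in hematopoietic progenitors (HP; CD41+), and C/EBPβ, RUNX1 and PU.1 in macrophages (MAC; CD11b+). The labels give no other genotype or treatment, and the serum content of the cultures is not given for these populations in the sources used here. Each list came from 1 antibody and 1 population with no biological replicate, and by the study's methods those of C/EBPβ in MES, HE and HP, GATA2 in HB and RUNX1 in MAC were sequenced more than once and merged, so how far a repeat would differ is not known for any count below. The lists give positions only, and the identity of the sorted cells could not be checked from them.

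Immediate early genes are transcribed on signalling before any new protein is made. At many of them the serum response factor SRF sits on a CArG box, an A/T-rich stretch between CC and GG, and is joined by a ternary complex factor that carries an ETS DNA-binding domain and contacts an adjacent GGAA site. ELK4 is such a ternary complex factor, activated through phosphorylation by MAP kinases. PU.1, encoded by Spi1 and required for macrophages, also has an ETS domain but prefers purine-rich sites such as GAGGAAGT. EGR1, EGR2 and EGR3 are zinc finger TFs that bind GC-rich sites, NR4A1 is an orphan nuclear receptor, MCL1 protects cells from apoptosis, DUSP1 dephosphorylates MAP kinases, and IER2 and IER3 are immediate early response proteins.

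The sequences shown first are from MES ELK4 peaks, because they hold a CArG box and the ETS sequence CCGGAA, or CCGGAA alone. Whether SRF or ELK4 contacts these letters was not tested. Each is the GRCm38 reference read on the strand of its gene, from 20 bp before the outermost motif to 20 bp after it, with CArG boxes and the ETS core CCGGAA, on either strand, in capitals.
Egr2, chr10:67537415-67537543, plus strand: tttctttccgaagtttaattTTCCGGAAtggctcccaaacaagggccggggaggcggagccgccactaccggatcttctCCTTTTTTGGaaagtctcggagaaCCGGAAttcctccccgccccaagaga
Ier2 upstream, chr8:84664062-84664161, minus strand: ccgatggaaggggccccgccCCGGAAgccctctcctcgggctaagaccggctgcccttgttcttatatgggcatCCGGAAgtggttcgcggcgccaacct
Ier2 downstream, chr8:84659989-84660034, minus strand: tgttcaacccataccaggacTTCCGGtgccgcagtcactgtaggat
Nr4a1, chr15:101266701-101266746, plus strand: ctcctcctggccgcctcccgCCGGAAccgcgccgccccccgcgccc
In the Egr2 stretch, 2 ETS cores on opposite strands overlap in TTCCGGAA. The Egr2 stretch holds a CArG box as well as ETS cores, and those of Ier2 and Nr4a1 hold only ETS cores.

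Whether ELK4 occupied these genes in mesoderm was the first comparison. Of the 9 genes, 6 had a MES ELK4 peak, namely Egr1, Egr2, Egr3, Mcl1, Ier2 and Nr4a1. Among all protein-coding genes 3.56% (776 of 21774) had one, and among the 12016 with a span no longer than that of Nr4a1, the longest of the 9, the share was 3.49%. The 8 peaks at the 6 genes were 1.53% of the 524 in this list. Srf, Ier3 and Dusp1 had none, and the ELK4 peaks closest to their start sites were 1048 kb, 410 kb and 510 kb away. These 3 genes all lie on chr17, where the list had 24 peaks and 3.25% of the protein-coding genes had one. In each of the 8 peaks the centre was closer to a start site of the named gene than to that of any other protein-coding gene, and in 5 of them it was within 2 kb of that start site.

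**Figure D1:**
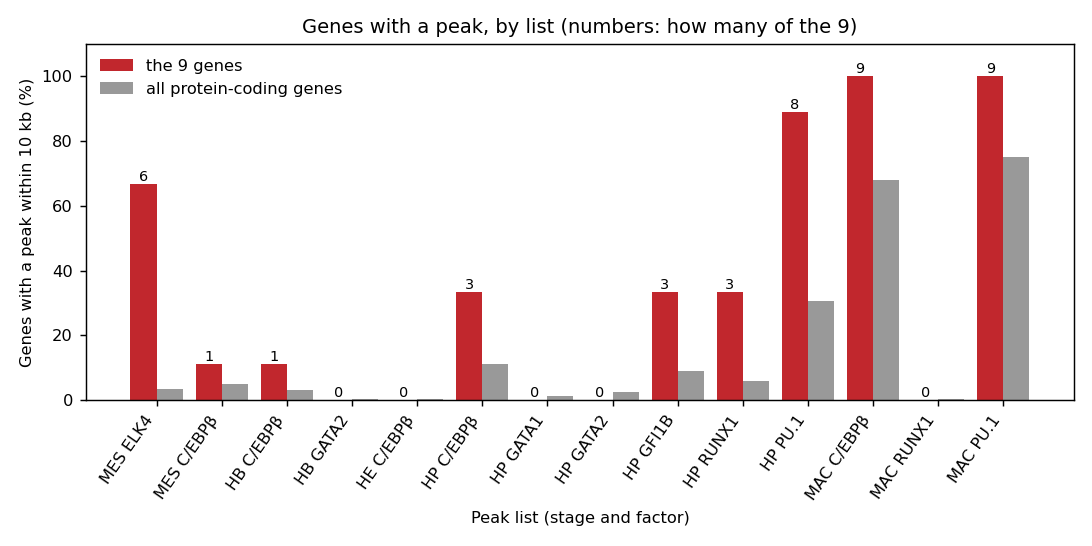
Share of genes with a peak within 10 kb, on a linear axis in percent, for the 9 genes (red, with the number of genes above the bar) and for all protein-coding genes (grey) in each of the 14 lists. MES ELK4 has 6 of 9 against 3.56%, while the macrophage PU.1 and C/EBPβ lists have 9 of 9 where most protein-coding genes also have a peak.

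The 3 EGR genes each had 1 ELK4 peak, and each of those peaks contained both motifs. At Egr1 (chr18:34861207-34864956, plus strand) the peak was centred 402 bp upstream of the start site and held 3 CArG boxes and 3 ETS cores. No peak of the other 13 lists overlapped it, and the share of the whole ELK4 list without such an overlap is not given here. At Egr2 (chr10:67534469-67542188, plus strand) the peak lay in an intron of the longer transcripts, 75 bp upstream of the nearest of 10 annotated start sites. At Egr3 (chr14:70077317-70082613, plus strand) the peak was centred 2364 bp upstream of the nearer of 2 start sites.

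Ier2 (chr8:84661331-84662852, minus strand) had 3 ELK4 peaks. Only 3 protein-coding genes of 21774 had as many, the others being Zfp764 and 9130019O22Rik, whose spans overlap each other. The Ier2 peaks were centred 1225 bp and 2182 bp upstream and 2829 bp downstream of its only annotated start site, which places the last beyond the end of the gene. None held a CArG box. The peaks at 1225 bp upstream and at 2829 bp downstream each contained the longer ETS consensus CCGGAAGT, of which CCGGAA is a part, and the peak at 2182 bp upstream contained no ETS core. In the upstream stretch printed above, tcttatatgg has 1 letter that departs from the CArG box and ends 4 bp from an ETS core.

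At Mcl1 (chr3:95656944-95663179, plus strand) the ELK4 peak was centred 5 bp from the nearer of 2 start sites, in an exon annotated as 5′ untranslated in a longer transcript, and held 2 ETS cores at 56 and 23 bp before its centre. Nr4a1 (chr15:101253902-101274795, plus strand) has 6 annotated start sites, and its ELK4 peak was centred 75 bp upstream of the nearest, within an intron of the longest transcripts. That peak held 1 ETS core and, like the peaks at Egr1 and Egr3, a match to the EGR motif (GCG, G or T, GGGCG). The Nr4a1 peak was overlapped by none of the other lists. As for Egr1, the share of the whole ELK4 list without such an overlap is not given here.

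**Figure D2:**
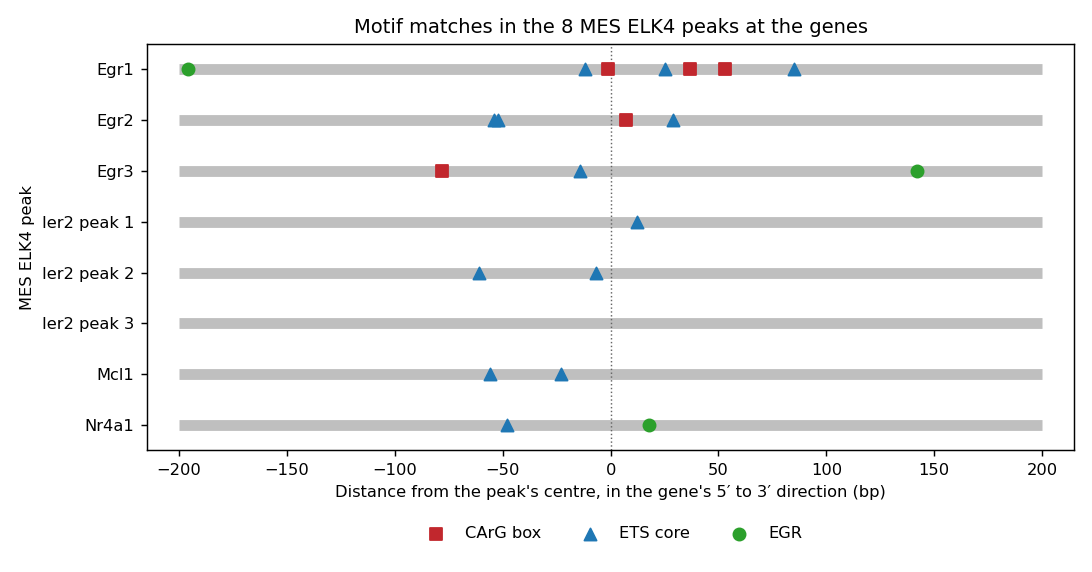
Matches to the CArG box (red squares), the ETS core CCGGAA (blue triangles) and the EGR motif (green circles) in the 8 MES ELK4 peaks of 400 bp, by distance in bp from the peak centre in the direction of transcription. The Ier2 peaks are numbered by genome position, which runs against the gene, so peak 1 is downstream of it. CArG boxes occur only in the Egr1, Egr2 and Egr3 peaks, and 7 of 8 peaks hold an ETS core.

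Counted over the 8 peaks, a CArG box was present in 3, against 27 of 524 peaks in the whole list (5.15%, exact binomial 95% interval 3.42 to 7.41) and 1.49% of the 400 bp windows centred on the 58462 annotated start sites. An ETS core was present in 7 of 8, against 32.3% of the list (28.3 to 36.4) and 20.8% of start-site windows. The ETS consensus was present in 2 of 8, against 9.35% and 4.99%. An EGR motif was present in 3 of 8, against 4.77% (3.11 to 6.96) and 5.84%. A CArG box and an ETS core occurred in the same peak in 12 of 524 peaks (2.29%, 1.19 to 3.97), and 3 of those 12 were the peaks at Egr1, Egr2 and Egr3. These intervals cover counting error only, and 8 peaks at 6 genes, 3 of them at Ier2, are not 8 independent observations.

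CArG boxes in the sequence were not all under an ELK4 peak. Egr1 had 5 within 2 kb of its start site, 3 of them in the ELK4 peak and the other 2 at 101 and 79 bp upstream of the start site, outside every list. Srf, which encodes the CArG-binding protein itself and is transcribed from chr17:46546838-46558267 on the minus strand, had CArG boxes 77 and 57 bp upstream and 1706 bp downstream of a start site, and none lay in a peak of any list. Egr2 had a second CArG box, 68 bp upstream of another of its start sites, and Egr3 had a CArG box 470 bp upstream of a start site, and each of these lay in a MAC PU.1 peak and in no ELK4 peak. Mcl1 and Nr4a1 each had 1 within 2 kb of a start site, 795 and 1548 bp downstream, in no peak. Ier2, Ier3 and Dusp1 had none within 2 kb.

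The wider set of 50 other immediate early genes gave 6 with a MES ELK4 peak (12.0%), against the same 3.56% of protein-coding genes. The other list of that stage, MES C/EBPβ, had a peak at 9 of the 50 (against 4.96%), so a share above the background was not a feature of ELK4 alone. Fos, which encodes a subunit of AP-1, had a peak 287 bp upstream of its start site and another 12222 bp downstream, each with a CArG box. Junb, whose product is another AP-1 subunit, had peaks 1341 bp upstream and 2128 bp downstream, again each with a CArG box. Arc had a peak 6720 bp upstream with a CArG box and an ETS core. Egr4, a further EGR family TF, Btg2, an antiproliferative gene, and Per1, a circadian clock gene, had peaks 80, 252 and 51 bp upstream of a start site, none of which held a CArG box. Among 20 genes for actin and cytoskeletal proteins known as SRF targets 1 had a peak (5.00%, near the 3.56% of protein-coding genes). This was Cfl1, which encodes the actin-severing protein cofilin, and the peak had 2 CArG boxes and Mus81 as its nearest protein-coding gene. Of 8 genes for SRF cofactors and EGR corepressors none had a peak, and a count of 0 among 8 genes is near that same share. Of the 27 ELK4 peaks with a CArG box in the whole list, 3 were at the 9 genes, 6 at the genes of these wider sets and 18 elsewhere. Those elsewhere include peaks nearest to Btg2 (13990 bp from a start site) and to Dusp6 (22703 bp), both genes of the wider set, which lie outside the 10 kb windows. The Fos promoter was a site at which the study's methods tested the ELK4 immunoprecipitation, and peak thresholds were set by eye at reference genes, so presence at this class of gene is not fully independent of how the list was made.

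**Figure D3:**
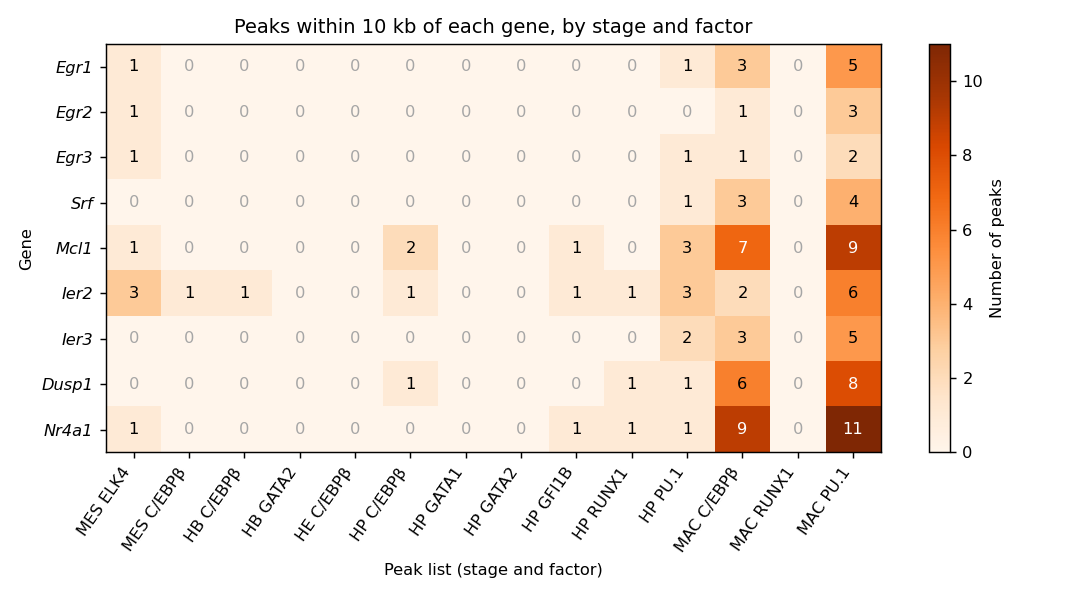
Number of peaks within 10 kb of each of the 9 genes (rows) in each of the 14 lists (columns), printed in each cell and shaded from 0 to 11. Ier2 has a peak in 9 lists, the most of the 9 genes, and the GATA1, GATA2, HE C/EBPβ and MAC RUNX1 columns hold none.

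C/EBPβ was the factor mapped at all 5 stages. In MES 1 of the 9 genes had a C/EBPβ peak (4.96% of protein-coding genes), in HB 1 (3.21%), in HE none (0.478%), in HP 3 (11.3%) and in MAC all 9 (67.9%). By the study's methods the p-value cutoff was strictest for the HE list and most permissive for the MAC list, so these counts and shares cannot be told apart from the cutoffs. The gene bound in MES and HB was in both cases Ier2, and it was bound at the same place in HP and MAC. The 4 peaks at this place started within 52 bp of each other and shared 348 bp, chr8:84661567-84661914, in the exon that holds the 3′ untranslated region of Ier2, with centres 1086 to 1138 bp after the start site. The shared interval contained a match to the C/EBP motif (TTGC, A or G, C or T, AA), shown in capitals on the strand of the gene with 11 bases on each side because it was under C/EBPβ peaks of 4 stages.
Ier2 C/EBP match, chr8:84661753-84661782, minus strand: agtgggcacgcTTGTGCAAgcggtcagagt
The same region held an AP-1 match (TGA, C or G, TCA) and overlapped a MAC PU.1 peak, which made it the region bound in the most lists at any of the 9 genes, with 5. A C/EBP match was found in 43.2% of all MES C/EBPβ peaks (40.4 to 46.1), 44.3% in HB, 38.3% in HP and 14.9% in MAC. The share was 13.6% in HE (8.29 to 20.7) and 2.13% in start-site windows. The HE list held 132 peaks, so that absence there was not separable from the short length of the list.

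In HP, C/EBPβ was further found at Mcl1, with peaks 6071 and 3139 bp upstream of a start site, and at Dusp1 (chr17:26505591-26508472, minus strand), with a peak 10626 bp after the start site and beyond the end of the gene, inside the gene Gm34455. Neither the Mcl1 nor the Dusp1 peaks held a C/EBP match. All 4 HP C/EBPβ peaks at the genes overlapped a MAC C/EBPβ peak, as did 91.4% of the whole HP list.

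PU.1 in HP was at 8 of the 9 genes, every one except Egr2, where 30.8% of protein-coding genes had a peak. There were 13 such peaks, 3 at Mcl1, 3 at Ier2, 2 at Ier3 and 1 at each of the others. Among protein-coding genes 3.89% had 3 or more. The peak at Srf was centred 306 bp upstream of a start site in an exon annotated as 5′ untranslated. At Ier3 (chr17:35821713-35822911, plus strand) 1 peak was 133 bp upstream of the start site, and the other lay 1860 bp downstream of it but 63 bp from a start site of the neighbouring gene Flot1. At Ier2 the peaks were 2250 and 1202 bp upstream and 406 bp downstream, the last in the coding exon. At Egr1 the peak was 4782 bp upstream. The PU.1 motif GAGGAAGT was in 4 of the 13 peaks, against 42.1% of the HP PU.1 list (41.1 to 43.0), and the ETS core in 5 of 13, against 8.47% (7.96 to 9.01).

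The PU.1 and ELK4 peaks coincided at several places. Of the 8 MES ELK4 peaks, 4 overlapped an HP PU.1 peak, those of Egr3, Mcl1 and both upstream peaks of Ier2, by 330 to 377 bp. In the whole ELK4 list 9.16% of peaks did so. For MAC PU.1 the count was 5 of 8 against 45.2%, with the Egr2 peak overlapping by 87 bp only. The ELK4 peak 1225 bp upstream of Ier2 was also under the HP RUNX1 peak, whose position was identical to that of the HP PU.1 peak there. No ELK4 peak at the genes overlapped a C/EBPβ peak of any stage. Of the whole ELK4 list 27.3% overlapped MAC C/EBPβ. For the C/EBPβ lists of the other stages the share was from 0.382% (HE) to 3.44% (HP), and 0 of 8 is near those shares. With 8 peaks, 3 of them at Ier2, the difference from the MAC share was not tested. The ELK4 and PU.1 cells differ in stage, and no ELK4 list of a later stage and no PU.1 list of an earlier stage was analysed here.

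RUNX1, a regulator of the emergence of blood cells, had a peak in HP at Ier2, Dusp1 and Nr4a1 (3 of 9, against 5.99% of protein-coding genes). The Dusp1 peak was centred 82 bp after the start site, in the exon of the 5′ untranslated region, and was overlapped by no other list. Of the whole HP RUNX1 list 62.8% overlapped a MAC PU.1 peak, and the share overlapped by no list is not given here. The Ier2 peak was 1202 bp and the Nr4a1 peak 7376 bp upstream of a start site. None of the 3 held the RUNX motif TGTGGTT, which was in 26.2% of the HP RUNX1 list (23.5 to 29.1), and those at Ier2 and Nr4a1 held an ETS core, which was in 32.8% of that list. GFI1B, a zinc finger repressor of blood progenitors, had a peak at Mcl1, Ier2 and Nr4a1 (3 of 9, against 9.12%). The Mcl1 peak was 3431 bp after a start site, in the exon of the 3′ untranslated region, and contained a PU.1 match and a GATA match (AGATAA, C or G). The Ier2 peak was 7317 bp downstream, and the Nr4a1 peak 15010 bp downstream and only 358 bp from a start site of Atg101. None of the 3 held the GFI1B motif (AATC, A or T, C or G, A or T, GC), which was in 25.9% of that list (24.0 to 27.8).

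GATA1 and GATA2 had no peak at any of the 9 genes. The HB GATA2 list covered 0.303% of protein-coding genes, the HP GATA1 list 1.27% and the HP GATA2 list 2.44%, and a count of 0 among 9 genes is near those shares. MAC RUNX1 also had none, with 72 peaks in the list and 0.358% of protein-coding genes covered. That list did have a peak at 4 of the 50 other immediate early genes, Fos, Fosb, Junb and Zfp36.

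In MAC both PU.1 (75.2% of protein-coding genes) and C/EBPβ (67.9%) were at all 9 genes, which at these shares says little about them. The number of peaks varied more. MAC PU.1 had from 2 peaks at Egr3 to 11 at Nr4a1, with a median of 5 where protein-coding genes had a median of 3 and those no longer than Nr4a1 had 2. MAC C/EBPβ had from 1 at Egr2 and Egr3 to 9 at Nr4a1, with a median of 3 against 1. Nr4a1 has the longest span of the 9 genes, 20894 bp, and so the widest window. Of all protein-coding genes 6.20% had 11 or more PU.1 peaks and 4.27% had 9 or more C/EBPβ peaks, and of those no longer than Nr4a1, most of which have smaller windows, 0.416% and 0.0499% did. Mcl1 followed with 9 and 7 (9.61% and 7.23% of all protein-coding genes had as many, and 1.60% and 0.499% of those no longer than Nr4a1), then Dusp1 with 8 and 6 (12.6% and 10.1%, and 3.21% and 1.37%). Egr2 and Egr3 had the fewest of both, 3 and 2 PU.1 peaks and 1 C/EBPβ peak each, and Egr1, with 5 and 3, was in the range of Srf, Ier2 and Ier3.

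**Figure D4:**
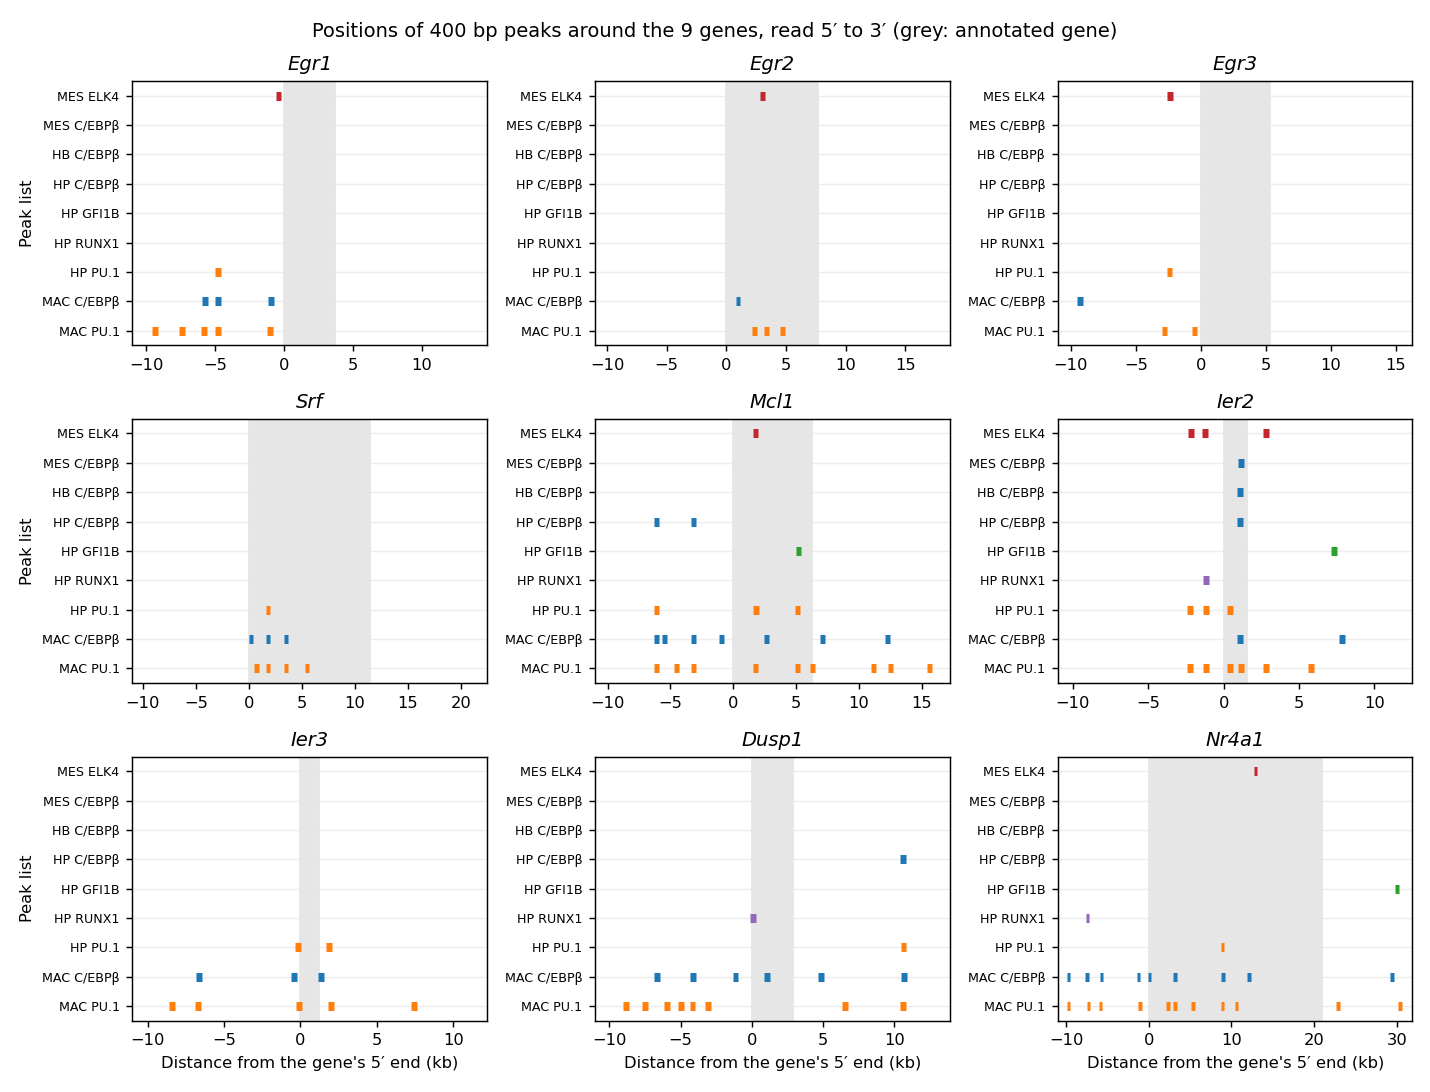
Position of every peak at the 9 genes by distance in kb from the 5′ end of the gene, read in the direction of transcription, with the annotated gene in grey and 1 row for each list that has a peak at any of them. Each ELK4 peak (red) is within 3 kb of a start site, and PU.1 (orange) and C/EBPβ (blue) peaks of macrophages are spread over the window, with 11 and 9 at Nr4a1.

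Of the 53 MAC PU.1 peaks, 13 overlapped an HP PU.1 peak (24.5%, against 12.8% of the MAC PU.1 list), and all 13 HP PU.1 peaks recurred in MAC, as did 97.0% of the whole HP PU.1 list. MAC C/EBPβ and MAC PU.1 peaks overlapped at 19 of the 35 C/EBPβ peaks (54.3%, against 42.5% of the list). When overlapping peaks were merged, the genes had 73 bound regions, of which 29 (39.7%) were in at least 2 lists, against 28.0% of all 117293 regions. Of the 73 regions 50 were in MAC lists only, against 85.3% of all regions. There were 4 in no MAC list, against 2.36% of all regions, the ELK4 regions of Egr1 and Nr4a1, the RUNX1 region at the Dusp1 start site and the GFI1B region downstream of Ier2. The GAGGAAGT motif was in 8 of the 53 MAC PU.1 peaks, against 24.4% of that list (24.1 to 24.7), and the C/EBP motif in 5 of the 35 MAC C/EBPβ peaks.

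By the set of lists in which they had a peak, Egr1 and Egr3 had the same pattern (MES ELK4, HP PU.1 and both MAC factors), which 188 other protein-coding genes shared. Egr2 lacked only the HP PU.1 peak of that pattern. Srf and Ier3 were alike in having HP PU.1 and both MAC factors, shared with 3263 others. Mcl1 and Nr4a1 were in 6 lists each, and 2.74% of protein-coding genes were in 6 or more. Dusp1 was in 5, and 7.13% were in 5 or more. Ier2, in 9 lists, was among 20 of 21774 genes in 9 or more lists (0.0919%), and no other protein-coding gene had its pattern.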

How the data were processed

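Per the study's methods, the authors trimmed reads with CutAdapt, aligned them to mm10 (GRCm38) with Bowtie, kept unique alignments, removed duplicates with Picard, called peaks with MACS against the input of the stage at p-value cutoffs chosen by eye and different between lists, refined them with polyPeak and set them to 400 bp around the summit. The submitters' processing notes also name bedtools; versions are not given in the sources used here. For HE, carrier mRNA and histone 2B were added. The deposited values are start and end positions, with no score, count or depth. Start positions were raised by 1 bp on reading, so all positions given here are 1-based and the peaks are 400 bp wide. RefSeq genes of GRCm38.p6 on 21 chromosomes were used. The 1 HP PU.1 peak outside them was left out of the motif shares and kept in list totals, overlaps and merged regions. Place was read at the peak centre, and motifs on both strands. Sequences of the other ELK4 peaks at the genes are not reported here. The 11 motifs, the genes and the wider lists were chosen with earlier results of these data known. The genes named for their peaks are the 9, every wider-list gene with an ELK4 peak, and some wider-list genes with a peak of another factor. Also named are the genes with as many ELK4 peaks as Ier2, and genes nearest to or overlapping a peak. Python 3.11.15, NumPy 2.4.6, SciPy 1.17.1, pysam 0.24.0 and Matplotlib 3.10.9 were used, and overlap and motif searches were tested on simulated data. Alternatives were other flanks, start-site windows, larger overlaps, leaving out regions bound in 10 or more lists, other gene backgrounds and looser motifs. No test between groups was run, because each group is 1 list with no biological replicate.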

Additional observations from a re-analysis of the deposited data

How the results depend on the processing

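Counts were taken as close when within 1.5 times the reported count. Leaving aside the 5 lists with no peak at the genes, 63 of 77 alternative values were that close. The 77 include counts made without regions bound in 10 or more lists. No region at the genes was in so many lists, so that setting could change no count and says nothing about stability. Each share in parentheses is of protein-coding genes under the same window. The ELK4 count of 6 genes held with flanks of 5 kb (2.88%) and 20 kb (4.66%), with an overlap of at least 200 bp, and with peaks given to the nearest start site. Without a flank it fell to 3 (Egr2, Mcl1 and Nr4a1, 2.10%), HP C/EBPβ to 1 (6.71%), HP GFI1B to 1 (5.72%), HP RUNX1 to 1 (3.59%), HP PU.1 to 5 (20.2%), and the 43 combinations of gene and list with a peak to 26. With a 5 kb flank HP GFI1B was at 1 gene (7.92%), and with a 20 kb flank HP RUNX1 was at 5 (7.79%). With peak centres within 2 kb of a start site, ELK4 was at 5 genes (1.94%), HP PU.1 at 4 (10.5%), HP C/EBPβ at 1 (4.33%) and HP GFI1B at 0 (4.48%). With 1 mismatch in the A/T run, CArG boxes were in 5 of the 8 ELK4 peaks at the genes, not 3. The share of the whole ELK4 list with this looser box is not given here, so the rise cannot be set against a background. The core CCGGAA in place of the ETS consensus was in 7 of these 8 peaks, not 2, and in 32.3% of the ELK4 list, not 9.35%. Of all annotated genes, 2.10% had an ELK4 peak. The smaller windows contain fewer peaks by construction. A stricter peak threshold was not run, since the files used here hold no score. No paired analysis was possible because each group holds 1 list. Depth is unknown, so an absent peak is only a site not called.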

Other observations

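Allowing 1 letter off anywhere in the CArG box, a search added after the sequences had been seen, 7 of the 8 ELK4 peaks at the genes held a match, against 32.4% of the ELK4 list (28.4 to 36.6). The peak 2182 bp upstream of Ier2, which held no ETS core, was among the 7, and the peak downstream of Ier2 was the exception.

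Other factors were also at the wider set of 50 immediate early genes. HE C/EBPβ, at none of the 9 genes, was at Per1 and Plk3 (4.00% of the 50, against 0.478% of protein-coding genes), and HB C/EBPβ was at 6 of the 50, Zfp36, Myc, Ptgs2, Trib1, Per1 and Plk3 (12.0%, against 3.21% of protein-coding genes). HP PU.1 was at 29 of the 50 (58.0%, against 30.8%) and MAC PU.1 at all 50 (against 75.2%). HP GATA2 was at Dusp2, Btg2 and Zfp36 (3 of the 50, against 2.44%), and HP GATA1 at Junb (2.00%, near its share of 1.27%). Of the 8 genes for SRF cofactors and EGR corepressors, Mkl1 had a peak in the lists of all 6 factors in HP, which covered from 1.27% (GATA1) to 30.8% (PU.1) of protein-coding genes.

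The order of the rows in the ELK4 list is not explained in the sources used here. The 8 peaks at the genes stand in rows 1 (Ier2, 1225 bp upstream), 4 (Egr3), 62 (Egr2), 125 (Mcl1), 177 (Nr4a1), 183 (Egr1), 290 and 395 (Ier2) of 524, and those of the wider set of immediate early genes in rows 13 to 477. With the list cut into 4 equal blocks in that order, 4, 2, 1 and 1 of the 8 peaks fell in them, the share of peaks with a CArG box was 5.34%, 6.11%, 6.11% and 3.05%, and the share with an ETS core 35.1%, 29.8%, 31.3% and 32.8%.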
